A study of Homo sapiens with 16 samples.

Results

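The transcript response of SETD2 WT 786-O cells to the BCL-XL inhibitor A1331852 was described from 6 of the 16 poly(A) RNA-seq libraries of a study on SETD2 loss in kidney cancer. The members were chosen by their labels: 3 libraries of SETD2 WT cells harvested after 72 h in 100 nM A1331852, and 3 of the same cells in DMSO, the vehicle, with no measured value used. All genes with enough counts to be tested were described, 16260 of the 60606 gene names in each file. For comparison, 6 libraries of 786-O cells labelled SETD2 null and titled KO, in DMSO or A1331852 at the same dose and time, entered the same model. The remaining 4 libraries came from A498 cells and were not used. 786-O is an established clear cell renal carcinoma line that lacks functional VHL, and all 12 libraries share that background. The labels do not say whether the WT and KO cells are clones or pools, and they do not state that the replicates were separate cultures. The p-values here therefore measure the spread between libraries, which may be technical.

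BCL-XL, encoded by BCL2L1, is a pro-survival protein of the BCL-2 family that sits on the mitochondrial outer membrane and holds the pore-forming proteins BAX and BAK in check. BH3-only members of the family, such as BIM and NOXA, bind to the groove of pro-survival members, and A1331852 is a small molecule that occupies the same groove of BCL-XL. The drug acts on the protein, so its target gene gives no check of the treatment at the RNA level.

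The batch label splits the controls. DMSO replicates 1 and 2 carry the label batch 2, while DMSO replicate 3 and all 3 treated libraries carry batch 1. Total counts were 15199420 to 36037616 in DMSO and 16731360 to 21951773 in A1331852. The SD over genes of the log2 difference between libraries was 0.287 for DMSO replicates 1 and 2, and 0.850 and 0.865 for either of them against DMSO replicate 3. Among treated libraries it was 0.458 for replicates 1 and 2, and 0.786 and 0.674 for pairs with replicate 3, which stood apart from the others. DMSO replicates 1 and 2 were the closest of these pairs, and the labels do not say that they are separate cultures. They may thus not be independent controls. On the first principal component, which held 53.3% of the variance of the 6 libraries, DMSO replicates 1 and 2 lay at -62.0 and -62.6, DMSO replicate 3 at 22.5, and the treated libraries at 18.9, 24.3 and 58.9. The renal carcinoma genes PAX8, PAX2, EPAS1, KRT8 and KRT18 were present in every library. Of the same list, CUBN and NDUFA4L2 had only 55 and 26 counts over the 6 libraries, and CA9 and LRP2 were at 0. Summed levels of 9 leukocyte markers were 0.302 to 0.556 CPM (a gene's counts relative to all counts of its library) in DMSO and 0.364 to 0.471 in A1331852, with CD3E, NKG7 and MS4A1 at 0. PECAM1, KDR and EMCN, markers of endothelium, HBB, HBA1 and HBA2, markers of erythrocytes, and COL3A1, a fibroblast gene, were at 0 too. Summed levels of the 7 fibroblast markers were 25.8 to 37.7 CPM in DMSO and 31.8 to 33.9 in A1331852. SETD2 was at 68.3, 70.5 and 65.1 CPM in DMSO replicates 1 to 3 and at 71.1, 68.5 and 63.2 CPM in A1331852. In the libraries labelled KO it was at 30.02, 28.02 and 30.2 CPM in DMSO and 29.5, 47.7 and 52.5 CPM in A1331852, below all WT libraries but not absent. An mRNA level does not measure the protein.

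Levels of single genes are given in CPM scaled by TMM factors, always in the order of replicates 1, 2 and 3. Changes are log2 fold changes of A1331852 over DMSO ± SE from an edgeR quasi-likelihood model with group and batch terms, in which the batch term was estimated from the DMSO libraries of both genotypes. A gene was called, and is said to have risen or fallen, at a Benjamini-Hochberg adjusted p under 0.05 over all 16260 genes. In WT cells 23 genes were called (0.141%), 6 higher (0.0369%) and 17 lower (0.105%). At an unadjusted p under 0.05 the numbers were 998 higher (6.14%) and 1082 lower (6.65%), and DESeq2 called 415 (2.89%), 223 higher (1.55%) and 192 lower (1.34%) among 14368 genes. In 1815 genes (11.2%) all 3 treated libraries lay above all 3 DMSO libraries, and in 1801 (11.1%) they all lay below. Against DMSO replicate 3 alone, the library of the same batch, all 3 treated libraries were higher for 4216 genes (25.9%) and lower for 4496 (27.7%). The log2 change had a median of -0.00 over all genes tested and ran from -0.85 to 0.79 between the 5th and 95th percentiles. With DMSO replicate 3 left out, 0 genes were called and 596 of 16770 had an unadjusted p under 0.05 in edgeR. The 23 genes kept their direction there, with a median size of change of 1.44 against 1.59 with all libraries. They had been picked in a fit that held these same libraries, so this is no independent check. In fits without WT DMSO replicate 3 all WT controls were of batch 2, so the batch term came from KO DMSO libraries alone. RNA was taken from bulk cultures, in which fewer cells of a type and less RNA per cell cannot be told apart.

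Among the 6 genes that rose were a pair of transcription factors of the PEA3 group of ETS proteins, ETV1 and ETV5, which are induced by signalling through the kinase ERK. ETV1 (chromosome 7, 13891229 to 13991425, minus strand, GRCh38) was at 4.09, 3.21 and 3.06 CPM in DMSO and at 13.04, 13.6 and 16.7 CPM in A1331852. Its 3 treated libraries lay far above all controls, of either batch, and close to each other. The log2 change was 2.12 ± 0.22 (adjusted p = 0.00714, edgeR). ETV5 (chromosome 3, 186046314 to 186110318, minus strand) was at 17.1, 18.9 and 6.37 CPM in DMSO and 21.7, 29.9 and 46.7 CPM in A1331852, a change of 2.12 ± 0.31 (adjusted p = 0.0275, edgeR). Here the control of batch 1 was the lowest library, and the treated libraries exceeded the batch 2 controls by a smaller margin. ETV1 was called in 11 of 12 fits that each left out 1 of the 12 libraries, and ETV5 in 6.

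AMIGO2, a membrane protein of cell adhesion (chromosome 12, 47075707 to 47079959, minus strand), was at 154, 172 and 105 CPM in DMSO and 275, 294 and 283 CPM in A1331852, which is 143 ± 34.5 against 284 ± 9.35 CPM (SD, n = 3). The groups did not overlap, and the treated libraries varied less than the controls. It rose by 1.29 ± 0.15 (adjusted p = 0.00714, edgeR) and was called in 11 of the 12 leave-one-out fits. UBASH3B, a phosphatase that removes phosphate from tyrosine kinases, was at 55.1, 60.4 and 21.2 CPM in DMSO and 67.3, 78.6 and 95.4 CPM in A1331852 and rose by 1.59 ± 0.24. SNTB1, a syntrophin of the membrane skeleton, was at 35.1, 34.8 and 25.2 and 44.9, 50.99 and 61.5 CPM and rose by 1.08 ± 0.16. The sixth gene, listed only as ENSG00000204876, went from 0.836, 0.680 and 1.24 to 3.46, 3.47 and 5.51 CPM and rose by 1.87 ± 0.31. In each of these genes the lowest treated library was above the highest control.

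Of the 17 genes that fell, 11 had no overlap between the groups. CCDC80, a secreted matrix protein (chromosome 3, 112596797 to 112649530, minus strand), was at 303, 309 and 249 CPM in DMSO and 134, 135 and 117 CPM in A1331852, or 287 ± 33.0 against 129 ± 10.0 CPM (SD, n = 3). TLL2, a metalloprotease of the tolloid group that processes matrix proteins (chromosome 10, 96364608 to 96513926, minus strand), was at 32.1, 32.3 and 27.4 CPM in DMSO and 12.98, 12.6 and 11.8 CPM in A1331852. For both genes the controls of both batches lay together and the treated libraries formed a tight group at a lower level. The log2 changes were -1.08 ± 0.15 for CCDC80 and -1.12 ± 0.15 for TLL2 (adjusted p = 0.0244 for each, edgeR). COL8A1, a short-chain collagen, was at 396, 385 and 534 CPM in DMSO and 266, 316 and 264 CPM in A1331852 and fell by 0.91 ± 0.13 on the log2 scale. ABCC9, the regulatory subunit of a potassium channel sensitive to ATP, was at 19.9, 23.2 and 30.6 and 10.7, 14.5 and 9.43 CPM, with a change of -1.43 ± 0.21. L1CAM, an adhesion molecule, was at 64.9, 70.04 and 31.1 and 11.8, 15.1 and 12.9 CPM. Its lowest control was DMSO replicate 3, and even that was more than the highest treated library. The change was -1.22 ± 0.19 (adjusted p = 0.0347, edgeR).

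Of these 11 genes, 4 had low levels after treatment. C1orf116 went from 25.9, 24.1 and 23.99 to 6.30, 5.58 and 2.63 CPM, a change of -2.27 ± 0.32. SAA1, an acute-phase protein, went from 6.44, 6.50 and 7.15 to 0.613, 1.44 and 2.02 CPM, a change of -2.67 ± 0.38, but it has a near-identical neighbour, SAA2, so that its count is uncertain. MAB21L3 went from 2.63, 2.46 and 2.93 to 0.836, 0.675 and 0.306 CPM. MISP, an actin-binding protein that helps to position the mitotic spindle, went from 1.73, 0.944 and 0.845 to 0.111, 0.135 and 0.0612 CPM with a change of -2.96 ± 0.50, and it was called in 0 of the 12 leave-one-out fits. NEU1, the lysosomal sialidase, was at 97.1, 90.2 and 126 and 57.8, 66.6 and 47.7 CPM and changed by -1.02 ± 0.16. HSPB8, a small heat shock protein that takes part in selective autophagy, was at 106, 103 and 123 and 53.6, 60.5 and 38.8 CPM and changed by -1.19 ± 0.20. In NEU1 and HSPB8 DMSO replicate 3 was the highest control and treated replicate 3 the lowest library.

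For the remaining 6 genes that fell, the groups overlapped, because the batch 2 controls were at the level of the treated libraries and only DMSO replicate 3 was higher. RETREG1, a receptor for autophagy of the endoplasmic reticulum, was at 1.64, 1.81 and 7.48 CPM in DMSO and 1.06, 1.67 and 1.53 CPM in A1331852. ABCB1, the multidrug efflux pump, was at 44.3, 41.6 and 131 and 49.7, 52.3 and 36.7 CPM. TUBA1A, an alpha-tubulin, was at 154, 147 and 384 and 112, 166 and 85.7 CPM, and DAB2, an endocytic adaptor, at 121, 106 and 348 and 137, 145 and 130.2 CPM. Each of these genes shows a single high value, that of the control of batch 1. SUSD4, a complement regulator, was at 8.67, 9.48 and 30.7 and 8.08, 9.36 and 5.08 CPM, and LINC02615, a noncoding RNA, at 10.3, 9.18 and 45.6 and 12.8, 13.9 and 7.29 CPM. The fitted changes, -2.48 ± 0.28 for RETREG1, -1.37 ± 0.19 for ABCB1, -1.65 ± 0.24 for TUBA1A, -1.16 ± 0.19 for DAB2, -1.87 ± 0.29 for SUSD4 and -1.83 ± 0.30 for LINC02615, were estimated with the batch term, to which the KO controls also contribute. DMSO replicate 3 of KO cells was likewise the highest KO control, at 0.925, 0.775 and 4.56 CPM for RETREG1 and 46.00, 43.99 and 104 CPM for ABCB1 over the 3 replicates. Without WT DMSO replicate 3 all WT controls were of batch 2, and the batch term came from the KO DMSO libraries alone. The changes kept their direction there, which is thus not independent of the KO controls, and none was called by edgeR. In that fit the changes were -2.69 for RETREG1, -1.10 for ABCB1, -1.63 for TUBA1A, -0.77 for DAB2, -1.45 for SUSD4 and -1.44 for LINC02615. Without the batch term they were smaller, at -1.32, -0.64, -0.91, -0.48, -1.11 and -0.92 in the same order.

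**Figure D1:**
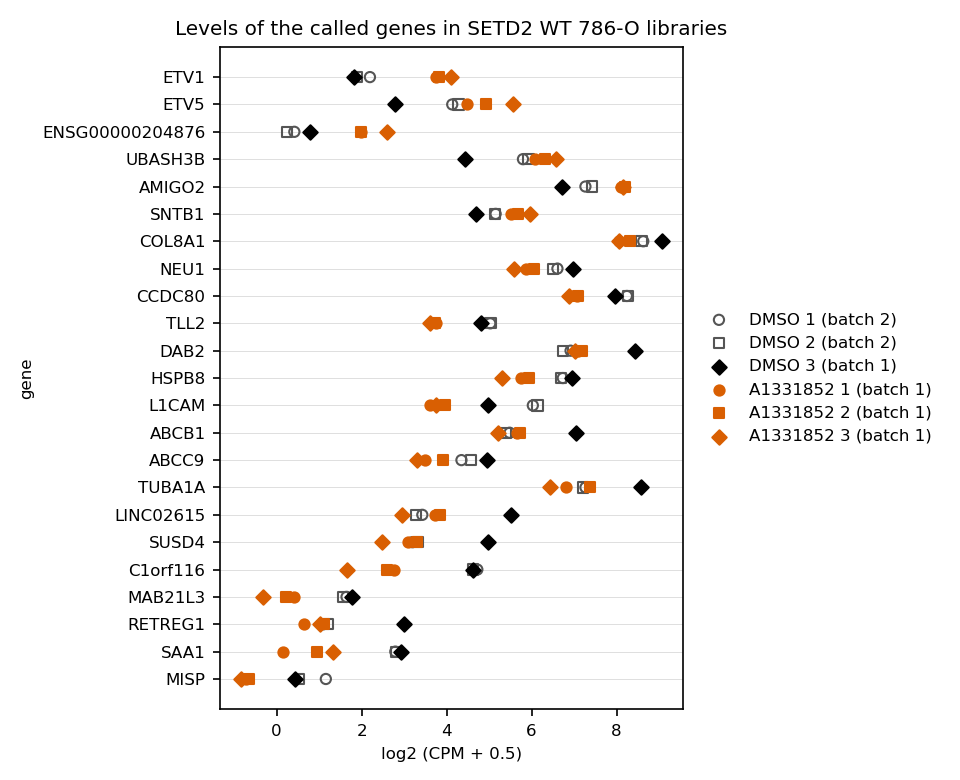
Level of each of the 23 called genes in the 6 libraries of SETD2 WT 786-O cells, as log2 of CPM plus a pseudocount, ordered by fitted change. Orange points are A1331852 libraries and grey or black points DMSO libraries, black being DMSO replicate 3. ETV1, AMIGO2, CCDC80 and TLL2 show separate groups, while in RETREG1, ABCB1, TUBA1A, SUSD4, DAB2 and LINC02615 only the black point lies apart from the treated libraries.

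The kinase ERK transmits signals from receptor tyrosine kinases to the nucleus, and its activity is commonly read from a set of transcripts that it induces. The list of these outputs was drawn up with the rises of ETV1 and ETV5 already known. It held 17 genes, all tested, in 2 roles: transcription factors with other early targets, and feedback inhibitors of the pathway. Besides ETV1 and ETV5, no member was called. The counts and the median of the list include both of these genes. In all, 15 of 17 had an unadjusted p under 0.05 and a higher level in A1331852 (6.14% of all genes), against 0 lower. DESeq2 called 13 higher. The median log2 change of the list was 2.01, against -0.00 over all genes tested. In 11 members all treated libraries exceeded all controls (11.2% of all genes), and in 15 they all exceeded DMSO replicate 3 (25.9%). Relative to DMSO replicate 3, the median log2 level of the list was 0.33 and 0.46 in DMSO replicates 1 and 2, and 1.16, 1.68 and 2.42 in the treated libraries. It was highest in treated replicate 3 and was above every control in all 3.

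All 9 feedback inhibitors had an unadjusted p under 0.05, with a median log2 change of 1.63. DUSP6, the cytoplasmic phosphatase that inactivates ERK, was at 1.73, 1.78 and 1.11 CPM in DMSO and 4.29, 4.14 and 8.02 CPM in A1331852, a change of 2.01 ± 0.42 (adjusted p = 0.113, edgeR). DUSP5, its nuclear counterpart, was at 14.4, 14.9 and 7.48 and 31.3, 31.3 and 92.2 CPM, with 2.45 ± 0.56. Neither gene overlapped between the groups, and in both the treated replicate 3 was the highest by far. SPRY2, a Sprouty inhibitor of receptor signalling, was at 4.55, 6.61 and 5.01 and 11.5, 12.1 and 24.9 CPM, with a change of 1.63 ± 0.39. SPRY4, another Sprouty, was at 0.433, 0.453 and 0 and 0.947, 1.26 and 4.23 CPM. Its fitted change of 4.31 ± 0.96 includes a control of batch 1 without a single count. SPRED1, which recruits neurofibromin to switch off RAS, was at 17.2, 17.2 and 17.5 CPM in the controls, almost the same in both batches, and at 26.6, 30.5 and 37.4 CPM after treatment, with a change of 0.78 ± 0.19. DUSP4, SPRED2 and SPRED3 had changes of 2.12 ± 0.64, 0.73 ± 0.20 and 1.49 ± 0.45, and SPRY1, at a level under 1 CPM in each library, one of 1.42 ± 0.64.

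Among the transcription factors and early targets, ETV4, the third member of the PEA3 group, was at 1.36, 1.59 and 0.195 CPM in DMSO and 1.34, 1.49 and 3.37 CPM in A1331852. Its batch 2 controls were level with treated replicates 1 and 2, so the groups overlapped, and the change of 2.74 ± 0.61 had an adjusted p of 0.129 (edgeR). FOSL1, a subunit of AP-1, was at 160.5, 191 and 39.6 and 104, 157 and 393 CPM, with both batch 2 controls above treated replicate 1. MYC was at 49.3, 54.7 and 63.8 CPM in DMSO and 101, 113 and 116 CPM in A1331852, with no overlap and a change of 0.79 ± 0.20. PHLDA1 was at 50.4, 55.1 and 40.04 and 89.7, 117 and 527 CPM, again with treated replicate 3 far above the others. EGR1 and IER3 were the members without an unadjusted p under 0.05. EGR1 was at 6.96, 6.23 and 71.8 and 113, 45.4 and 6.31 CPM, in no order of treatment, and IER3 had a change of 0.33 ± 0.22. Without treated replicate 3, 2 members were called, 14 had an unadjusted p under 0.05 and the list median was 1.25. Without DMSO replicate 3 these were 0, 10 and 1.67.

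**Figure D2:**
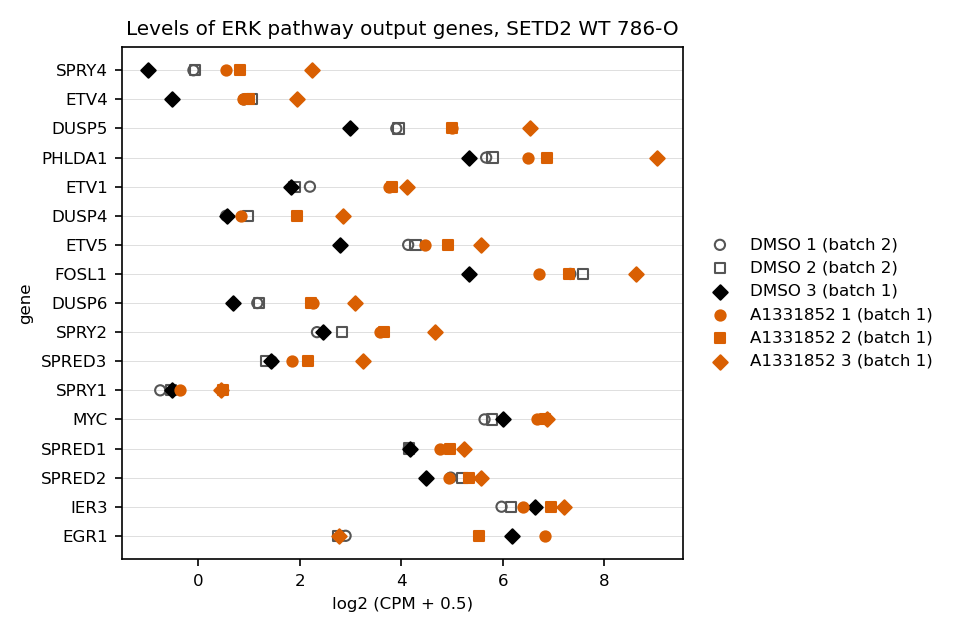
Level of the 17 ERK output genes in each of the 6 WT libraries, as log2 of CPM plus a pseudocount, in order of fitted change. In 11 genes, among them ETV1, DUSP5, DUSP6, SPRY2 and SPRED1, the 3 orange A1331852 points all lie to the right of the 3 DMSO points. In ETV4, FOSL1, DUSP4 and SPRED2 the open batch 2 controls reach into the treated range.

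Receptor tyrosine kinases and their ligands act upstream of ERK. Of 23 tested genes for such receptors and ligands, 0 were called. At an unadjusted p under 0.05, 4 had a higher level (6.14% of all genes) and 5 a lower level (6.65%). TGFA, a ligand of the EGF receptor, was at 284, 282 and 258 CPM in DMSO and 452, 849 and 1571 CPM in A1331852. It had no overlap, its controls agreed across batches, and its change was 1.90 ± 0.42 (adjusted p = 0.129, edgeR). The receptor gene MET had a change of 0.53 ± 0.16 and the lymphatic growth factor gene VEGFC one of 1.12 ± 0.36, and both overlapped with the batch 2 controls. EREG, another EGF receptor ligand, was at 59.98, 71.02 and 6.76 and 27.3, 30.8 and 95.5 CPM, where the controls of batch 2 were above treated replicates 1 and 2. FGFR2, a receptor, was at 53.1, 46.9 and 103 and 48.3, 29.8 and 5.51 CPM, with a change of -1.66 ± 0.59. Of 15 immediate early genes, 4 had an unadjusted p under 0.05 with a higher level (6.14% of all genes) and 1, JUND, with a lower level (6.65%), at -0.52 ± 0.22. KLF2 was at 4.24, 5.14 and 2.21 and 5.24, 6.30 and 19.7 CPM and KLF6 at 133, 145 and 119 and 255, 154 and 291 CPM, both without overlap.

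No gene of the BCL-2 family list was called. The median log2 change of its 15 tested members was -0.09. At an unadjusted p under 0.05, 2 had a higher level (6.14% of all genes) and 3 a lower level (6.65%). BCL2L1, the gene of the drug's target (chromosome 20, 31664452 to 31723989, minus strand), was at 319, 339.5 and 277 CPM in DMSO and 211, 305 and 399.9 CPM in A1331852. The treated libraries spanned the controls on both sides, and the change was 0.19 ± 0.24 (adjusted p = 0.792, edgeR). MCL1, the pro-survival member that can take over from BCL-XL, was at 244, 248 and 262 and 298, 268 and 393 CPM. Its groups did not overlap, but the change of 0.24 ± 0.17 was small and the adjusted p 0.583 (edgeR). BCL2, a further pro-survival member, was at 20.9, 20.1 and 25.9 and 17.6, 17.96 and 9.13 CPM, with a change of -0.83 ± 0.29 (adjusted p = 0.274, edgeR) and its lowest level in treated replicate 3. BCL2L2 had a change of 0.35 ± 0.18, and BCL2A1 was under 1 CPM in each library.

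BH3-only genes differed among themselves in direction. PMAIP1, which encodes NOXA, a partner of MCL1, was at 26.3, 29.1 and 30.4 CPM in DMSO and 47.98, 54.5 and 97.6 CPM in A1331852. Controls of both batches were alike and all treated libraries were higher, with a change of 1.05 ± 0.28 (unadjusted p = 0.00255, adjusted p = 0.165, edgeR). BMF, released from the cytoskeleton under stress, was at 15.7, 12.8 and 22.8 and 5.91, 6.84 and 8.57 CPM, all treated libraries lower, with a change of -1.23 ± 0.37 (adjusted p = 0.202, edgeR). BCL2L11, which encodes BIM, was at 27.2, 26.4 and 38.6 and 25.9, 19.98 and 7.72 CPM, where treated replicate 1 was just under the lowest control and treated replicate 3 far under it. BID, BBC3 and BIK had changes of 0.41 ± 0.19, -0.32 ± 0.32 and -1.30 ± 0.67. Of the pore formers, BAX had a change of 0.10 ± 0.14, BOK one of -0.30 ± 0.14, and BAK1, which encodes BAK, one of -0.38 ± 0.15. BAK1 was at 58.5, 61.8 and 29.1 and 24.97, 27.00 and 22.2 CPM, so most of the gap between the group means was a gap between batches. BCL2L15, a family member outside the list, was at 5.76, 5.14 and 8.71 and 3.40, 1.85 and 2.14 CPM and had a change of -1.74 ± 0.36. Among 11 genes of caspases and their partners and 10 of death receptors, 0 were called, and TRADD, an adaptor of the TNF receptor, had the smallest p, with 39.5, 43.4 and 42.4 and 28.98, 32.04 and 32.2 CPM and a change of -0.48 ± 0.13.

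Genes were ranked by the size of their change among those at 5 CPM or more in the higher group, with an unadjusted p under 0.05 and no overlap. The 12 at the top with a higher level all had their highest value in treated replicate 3. ANGPTL4, a secreted inhibitor of lipoprotein lipase (chromosome 19, 8363289 to 8374370, plus strand), was at 0.681, 1.44 and 0.585 CPM in DMSO and 6.69, 9.95 and 62.8 CPM in A1331852, a change of 6.01 ± 1.21 (adjusted p = 0.1, edgeR). STC1, the glycoprotein hormone stanniocalcin, was at 7.71, 7.71 and 14.6 and 28.3, 54.1 and 284 CPM, and SIGLEC15, a receptor for sialic acid, at 1.58, 1.96 and 0.715 and 5.52, 8.19 and 34.5 CPM. That the treated libraries were above all controls follows from the rule by which these genes were ranked. Replicate 3 was several times the other treated libraries. ANGPTL4 and SIGLEC15 met the threshold of 5 CPM only through the treated group. COL13A1, a transmembrane collagen, was at 1.58, 2.30 and 1.69 and 4.18, 8.28 and 34.5 CPM, and COL6A3, a chain of collagen VI, at 4.18, 4.34 and 0.975 and 5.68, 5.63 and 40.2 CPM. PTGS1, the constitutive cyclooxygenase, had 0.588, 0.642 and 0.260 and 1.39, 0.810 and 19.1 CPM, so treated replicates 1 and 2 were close to the controls and replicate 3 carried the change of 4.05 ± 1.35. PGF, TMEM158, SLC37A2 and MIR100HG, also among the 12, had changes of 4.17 ± 1.18, 2.29 ± 0.68, 2.29 ± 0.58 and 2.68 ± 0.83 and adjusted p-values of 0.184, 0.196, 0.153 and 0.21 (edgeR).

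Among the 12 with the largest lower level, besides SAA1, C1orf116 and BCL2L15, was S1PR1. S1PR1, a receptor for sphingosine 1-phosphate, was at 35.9, 32.5 and 61.95 CPM in DMSO and 17.2, 14.8 and 3.31 CPM in A1331852, a change of -2.49 ± 0.48 (adjusted p = 0.0928, edgeR). EDN2, an endothelin, was at 35.7, 36.1 and 41.6 and 10.3, 8.06 and 0.551 CPM, with controls alike in both batches. C3, the central complement component, was at 28.4, 29.4 and 41.99 and 3.40, 12.8 and 15.5 CPM, and here treated replicate 1 was the lowest. MATN2, a matrix filament protein, was at 94.7, 89.6 and 194 and 41.4, 81.1 and 65.3 CPM, where treated replicate 2 came close to the batch 2 controls. ELF3, an epithelial ETS transcription factor, was at 102, 87.9 and 169 and 59.2, 62.2 and 15.1 CPM, MYCL at 9.87, 9.14 and 13.6 and 4.35, 4.50 and 2.39 CPM and TP53INP2, a regulator of autophagy, at 10.7, 9.48 and 27.5 and 7.75, 8.15 and 2.08 CPM. The changes ran from -1.65 for MYCL to -2.49 for S1PR1, with ADAMTS5, an aggrecanase, at -1.99 ± 0.41 and GASK1B at -1.68 ± 0.53. None of these genes outside the 23 was called.

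Targets of hypoxia-inducible factors (HIF) are constitutively on in cells without VHL, here through the HIF subunit encoded by EPAS1. Of 23 tested targets, 0 were called, 8 had an unadjusted p under 0.05 with a higher level (6.14% of all genes) and 0 with a lower level, 9 had all treated libraries above all controls (11.2%), and the median log2 change was 0.48. Relative to DMSO replicate 3, the list's median level was -0.31 and -0.40 in the batch 2 controls and -0.04, 0.24 and 0.94 in the treated libraries, so replicate 1 was at the level of the control of its batch. CA12, a carbonic anhydrase of the cell surface, was at 155, 151 and 134 CPM in DMSO and 221, 301 and 592 CPM in A1331852, with a change of 1.51 ± 0.34 (adjusted p = 0.129, edgeR). PLIN2, the coat protein of lipid droplets, was at 89.1, 80.1 and 111 and 116, 188 and 390.1 CPM, and CCND1, cyclin D1, at 602, 621 and 721 and 722, 1383 and 1693 CPM. VEGFA, the vascular growth factor, was at 382, 389 and 514 and 381, 809.6 and 1743 CPM, where treated replicate 1 was at the level of the lowest controls and replicate 3 more than 3 times the highest. EGLN1, KDM3A and ANKRD37 had changes of -0.21 ± 0.16, -0.01 ± 0.17 and -0.35 ± 0.34. Without treated replicate 3 the median of the list was 0.20, 4 members had an unadjusted p under 0.05 with a higher level, and edgeR called 2. EPAS1 itself was at 104, 95.5 and 88.8 and 88.4, 108 and 212 CPM.

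Genes of cholesterol synthesis and uptake, which the transcription factor SREBP2 switches on when membrane sterol is low, had mostly lower levels after treatment. Of 25 tested members 0 were called, 11 had an unadjusted p under 0.05 with a lower level (6.65% of all genes) and 0 with a higher level, and 24 had a negative change. In 13 members all treated libraries were below all controls (11.1% of all genes), and the median log2 change was -0.59. The list's median level relative to DMSO replicate 3 was 0.15 and 0.09 in the other controls and -0.22, -0.48 and -0.83 in the treated libraries. All 3 treated values were thus below all control values, with the lowest in replicate 3. The promoters of MVD and LSS are shown because both genes had no overlap between the groups and carry CCAAT boxes, which bind NF-Y, a partner of SREBP2 on sterol genes. The stretches are read 5′ to 3′ on the strand of the gene (RefSeq, GRCh38.p14). They end short of any exon that GENCODE release 29 gives the gene. In release 41, used for the counts, MVD reaches to 88663161, so the end of its stretch, with its marked TGGGGTG, lies inside the gene. Capitals mark CCAAT or its complement ATTGG, and TGGGGTG, the complement of CACCCCA, a core of the sterol element.
MVD promoter, chr16:88663111-88663221, minus strand: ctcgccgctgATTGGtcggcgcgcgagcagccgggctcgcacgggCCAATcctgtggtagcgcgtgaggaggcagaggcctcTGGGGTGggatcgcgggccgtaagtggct
LSS promoter, chr21:46228834-46228944, minus strand: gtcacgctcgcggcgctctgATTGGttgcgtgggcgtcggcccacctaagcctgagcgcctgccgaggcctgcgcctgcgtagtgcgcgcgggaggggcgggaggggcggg
The matches in MVD begin at -120, -85 and -48 from the start site, and the match in LSS at -150. Windows from 250 bases before to 50 after a start were listed for 18 of the 25 genes (23 windows), and 18 of these 23 (78.3%) held CCAAT on either strand, against 34.6% of the 35116 windows in the table. CACCCCA was in 4 of 23 (17.4%), against 8.08% of all windows. A match is a description of the letters and shows no binding.

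MVD, mevalonate diphosphate decarboxylase (chromosome 16, 88651935 to 88663161, minus strand), was at 178, 189 and 119 CPM in DMSO and 91.00, 88.6 and 81.6 CPM in A1331852. The treated libraries were close to each other and under both batches of controls, which differed between themselves, and the change was -0.56 ± 0.14 (adjusted p = 0.147, edgeR). LSS, which closes the sterol ring, was at 176, 176 and 191 and 152, 102 and 45.1 CPM, a change of -1.03 ± 0.42 with the lowest level in treated replicate 3. HMGCS1, at the start of the mevalonate pathway, was at 163, 159 and 248 and 158, 128 and 80.2 CPM, where treated replicate 1 was level with the lower batch 2 control and treated replicate 3 was the lowest library. DHCR7, the last enzyme of the pathway, was at 193, 192 and 174 and 100.4, 103 and 50.9 CPM, without overlap and with a change of -1.18 ± 0.37. SREBF2, the gene of SREBP2, had one of -0.50 ± 0.31. PMVK was the member with a positive change, 0.18 ± 0.16. The 11 tested genes of fatty acid synthesis had a median change of -0.39. Of these, 2 had an unadjusted p under 0.05 with a lower level (6.65% of all genes), ACSS2 (-0.57 ± 0.21) and ELOVL5 (-0.31 ± 0.14). Without treated replicate 3 the cholesterol median was -0.46, and without DMSO replicate 3 it was -0.76, with 8 members at an unadjusted p under 0.05 in each case.

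**Figure D3:**
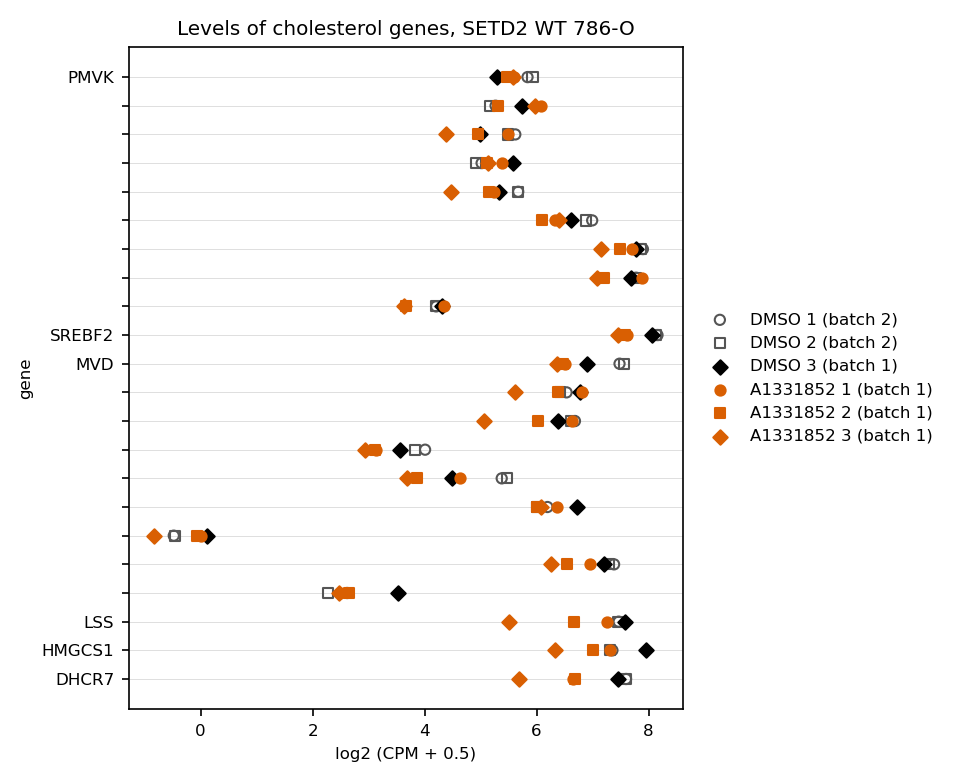
Level of 22 of the 25 tested genes of cholesterol synthesis and uptake (those with values in the text are labelled) in each of the 6 WT libraries, as log2 of CPM plus a pseudocount, in order of fitted change. In 10 of the 22, including MVD, LSS, DHCR7 and SREBF2, the orange A1331852 points lie to the left of all DMSO points, and treated replicate 3 is often the lowest.

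Genes of G2 and mitosis, by the median level of the list, were higher after A1331852 only relative to the control of batch 1. Of 25 tested members, 0 were called, 16 had an unadjusted p under 0.05 with a higher level (6.14% of all genes) and 0 with a lower level, and in all 25 the treated libraries were above DMSO replicate 3 (25.9% of all genes). The median log2 change was 0.65. Relative to DMSO replicate 3, however, the list's median level was 1.04 and 0.91 in the batch 2 controls, against 1.21, 0.67 and 0.76 in the treated libraries. The batch 2 controls were thus within the range of the treated libraries, and 5 of 25 members had all treated libraries above all controls (11.2% of all genes). Without DMSO replicate 3 the median was 0.16 and 0 members had an unadjusted p under 0.05. TOP2A and CENPF, for which promoters follow, are among the 5. Capitals mark CCAAT boxes as above and TTTGAA or its complement TTCAAA, the cell cycle homology element of mitotic promoters.
TOP2A promoter, chr17:40417951-40418096, minus strand: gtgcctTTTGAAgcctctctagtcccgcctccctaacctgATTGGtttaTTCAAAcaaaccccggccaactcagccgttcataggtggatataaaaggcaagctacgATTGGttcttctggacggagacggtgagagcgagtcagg
CENPF promoter, chr1:214603095-214603194, plus strand: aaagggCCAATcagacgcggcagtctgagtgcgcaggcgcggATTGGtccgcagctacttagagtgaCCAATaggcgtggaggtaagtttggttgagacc
Matches begin at -194, -160, -151 and -93 in TOP2A and at -94, -58 and -33 in CENPF. Of 22 windows listed for 19 of the 25 genes, 20 (90.9%) held CCAAT and 13 (59.1%) held TTTGAA on either strand, against 34.6% and 15.2% of all windows.

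TOP2A, the topoisomerase that untangles chromosomes, was at 325, 291 and 257 CPM in DMSO and 629, 429.9 and 659 CPM in A1331852, above controls of both batches, with a change of 0.91 ± 0.23 (adjusted p = 0.153, edgeR). CENPF, a kinetochore protein, was at 300.0, 219 and 232 and 530.0, 355 and 419 CPM, and CDK1, the kinase that starts mitosis, at 95.9, 96.3 and 78.8 and 186, 126 and 171 CPM. These genes and CENPE and TTK kept a gap to both kinds of control. For most members this was not so. MKI67, the proliferation marker, was at 818, 840.4 and 275 and 667, 452 and 414 CPM, and PLK1, a mitotic kinase, at 283, 303 and 83.9 and 216, 136 and 138 CPM, with the highest levels in the batch 2 controls. AURKB was at 71.1, 82.96 and 29.4 and 71.8, 52.6 and 76.01 CPM, so treated and batch 2 libraries were alike. The S phase list, 20 genes, had a median change of 0.35. Its members with an unadjusted p under 0.05 and a higher level (6.14% of all genes) were 2, CDT1 (0.58 ± 0.21) and RRM2 (0.61 ± 0.27). The level of the list in treated replicate 3 was -0.17 relative to DMSO replicate 3, under all other libraries. Without treated replicate 3, 16 members had an unadjusted p under 0.05 with a higher level and the median was 0.58. Without DMSO replicate 3 these were 0 and 0.098. CDT1 changed sign, to -0.40, without the batch term.

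Of 28 tested genes of the integrated stress response, the program that the factor ATF4 runs when translation is curbed, 0 were called, 9 had an unadjusted p under 0.05 with a higher (6.14% of all genes) and 2 with a lower level (6.65%), and the median change was 0.47. XPOT, a tRNA exporter, was at 152, 154 and 125 and 168, 197 and 281 CPM, MTHFD2, of mitochondrial folate metabolism, at 136, 145 and 126 and 144, 216 and 299.8 CPM, and PSAT1, of serine synthesis, at 155, 157 and 139.5 and 153, 267 and 232 CPM. Treated replicate 1 of MTHFD2 and PSAT1 was at the level of the batch 2 controls. XPOT had no overlap and a change of 0.77 ± 0.21 (adjusted p = 0.174, edgeR). The list's level relative to DMSO replicate 3 was -0.20 in treated replicate 1 and 0.39 and 0.66 in replicates 2 and 3. GDF15, a secreted stress hormone, was at 52.5, 49.7 and 127 and 78.7, 217 and 673 CPM. Among 19 p53 targets, GDF15 included, 0 were called and the median change was -0.05. Of these, 1 had an unadjusted p under 0.05 with a higher level (6.14% of all genes) and 3 with a lower level (6.65%). XPC, a DNA damage sensor, was at 61.99, 59.2 and 117 and 67.2, 66.6 and 48.3 CPM, at the level of the batch 2 controls, and SESN2 had a change of -0.48 ± 0.17 without overlap.

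Interferon-stimulated genes, the antiviral transcripts that follow interferon or nucleic acid sensing, were measured in 41 members. None was called, and the median log2 change was 0.17. At an unadjusted p under 0.05, 5 had a higher level (6.14% of all genes) and 1 a lower level (6.65%). OASL was at 6.53, 5.59 and 1.11 CPM in DMSO and 4.85, 5.13 and 6.74 CPM in A1331852, so the treated libraries were at the level of the batch 2 controls and above DMSO replicate 3. IFIT2 was at 17.5, 17.8 and 14.8 and 19.00, 23.3 and 36.6 CPM, with no overlap and a change of 0.66 ± 0.27. CGAS, the cytosolic DNA sensor, was at 19.9, 21.3 and 9.69 and 18.00, 16.7 and 15.3 CPM, with a change of 0.51 ± 0.22 that became -0.03 without the batch term. Its partner STING1 had a change of -0.45 ± 0.30. Of the 13 mRNAs of the mitochondrial genome 0 were called, and 12 had a negative change, with a median of -0.20. MT-CYB was at 2208, 2080.0 and 1746 and 901, 1532 and 929.9 CPM and MT-ND5 at 4091, 3971 and 1931 and 1047, 1678 and 1503 CPM, and for MT-ND5 the gap between batches was larger than that between the treated libraries and the control of their batch.

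**Figure D4:**
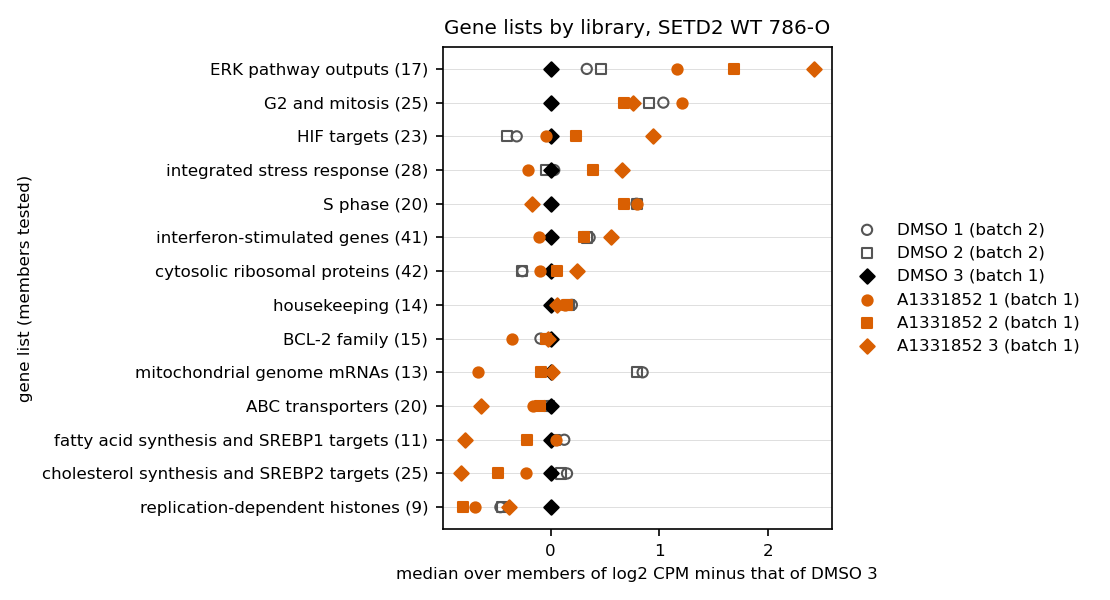
Median level of 14 gene lists in each WT library, as log2 CPM relative to DMSO replicate 3, which is at 0 by construction. The orange A1331852 points of the ERK outputs (1.16, 1.68 and 2.42) lie to the right of all controls, the cholesterol list lies left of all controls (-0.22 to -0.83), and in the G2 and mitosis list the open batch 2 controls (1.04 and 0.91) fall among the treated libraries.

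Of 20 tested ABC transporter genes, ABCB1 and ABCC9 fell, and the median change was -0.24. The groups overlapped for ABCB1, whose batch 2 controls lay within the range of the treated libraries. At an unadjusted p under 0.05, 6 had a lower level (6.65% of all genes) and none a higher level (6.14%). ABCC1, a drug and glutathione pump, was at 227, 226 and 241 and 155, 162 and 113 CPM, with controls alike in both batches, no overlap and a change of -0.64 ± 0.20. Of 24 genes of collagens and matrix, COL8A1 fell. At an unadjusted p under 0.05, 2 had a higher level (6.14% of all genes) and 6 a lower level (6.65%). SPARC, a matrix glycoprotein, was at 1018, 1061 and 1323 and 617, 815 and 780.1 CPM and COL4A1, a basement membrane collagen, at 1174, 1182 and 874 and 464, 611 and 628 CPM, both without overlap and unlike COL6A3 and COL13A1 in direction. TGFBI, which the cytokine TGF-beta induces, was at 3595, 3634 and 3961 and 2326, 2975 and 2762 CPM. MCAM, an adhesion molecule, was at 112, 114 and 90.9 and 52.8, 66.2 and 40.97 CPM and ITGB3, an integrin, at 78.7, 74.6 and 62.7 and 95.01, 116 and 198 CPM. The changes were -0.90 ± 0.20 and 1.13 ± 0.28. Of 13 tubulin genes TUBA1A fell, but its batch 2 controls also lay within the range of the treated libraries. The neuronal tubulin gene TUBB3 was at 4.55, 5.25 and 4.55 and 2.79, 2.39 and 2.63 CPM, without overlap. TUBA1A shares most of its sequence with other alpha-tubulin genes, so that its count is uncertain.

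TNFAIP2, a target of NF-kB, was at 461, 477 and 713 and 297, 425 and 189.9 CPM, with a change of -1.15 ± 0.27, and VCAM1, another, at 36.5, 37.6 and 14.8 and 27.6, 49.6 and 156 CPM. NT5E, an ectonucleotidase listed with the targets of YAP, was at 54.7, 58.9 and 10.7 CPM in DMSO and 58.01, 76.8 and 518 CPM in A1331852. In VCAM1 and NT5E the batch 2 controls reached treated replicate 1, and replicate 3 held the high value. PFKFB3, which drives glycolysis, was at 408, 389 and 497 and 284, 332 and 302 CPM, without overlap and with a change of -0.62 ± 0.13, and PPARGC1A, a regulator of mitochondrial number, had one of -1.43 ± 0.38 in which DMSO replicate 3 is the highest library, at 8.08, 6.76 and 19.8 and 6.46, 9.14 and 6.43 CPM. Of 9 replication-dependent histone genes in these poly(A) libraries, 4 had an unadjusted p under 0.05 with a lower level (6.65% of all genes). These were H2BC21, H2AC6, H2BC5 and H2BC12, and the median change of the list was -0.89. Genes of this family are near-identical, and most of them were under 5 CPM. The 42 cytosolic ribosomal protein genes had a median change of 0.10 and the 14 housekeeping genes one of 0.01, with 0 members of either list at an unadjusted p under 0.05.

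The response was set beside that of the SETD2 KO cells, which have controls of their own but share the batch term. In KO cells 2201 genes were called (13.5%), 1050 higher (6.46%) and 1151 lower (7.08%), and 17 of the 23 genes called in WT were called in KO in the same direction. The difference between the responses, tested as an interaction, was called for 48 genes (0.295%), 15 with a higher (0.0923%) and 33 with a lower value (0.203%) in WT. That count was 0 without KO DMSO replicate 1 or 2 and, rounded, 5.0e+02 without WT A1331852 replicate 3. Of the 23 genes, CCDC80, TLL2, ABCC9 and MISP were among the 48. CCDC80 was at 154, 151 and 161 CPM in KO cells in DMSO and at 146, 121 and 139 CPM under A1331852. The KO controls were thus already near the level of treated WT cells, and the KO change was -0.13 ± 0.14. The difference of the responses was -0.95 ± 0.17 (adjusted p = 0.041, edgeR). TLL2 was at 22.5, 21.6 and 18.01 and 25.3, 26.8 and 20.6 CPM in KO cells, a change of 0.41 ± 0.16 and a difference of -1.52 ± 0.18 (adjusted p = 0.00726, edgeR). ABCC9 and MISP had KO changes of 0.02 ± 0.21 and 0.97 ± 0.36. ABCC9 was at 10.4, 10.4 and 15.7 CPM in KO cells in DMSO, also near the level of treated WT cells. The KO controls of TLL2 were below its WT controls, and for MISP the controls of the genotypes overlapped. CCDC80, TLL2, ABCC9 and MISP thus fell in WT cells, and none was called in KO cells.

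ETV1, with 2.12 ± 0.22 in WT and 2.09 ± 0.21 in KO cells, and ETV5, with 2.12 ± 0.31 and 2.79 ± 0.31, rose in both, and their differences were not called. The median of the ERK outputs was 2.01 in WT and 2.09 in KO cells, with a called difference in 0 of 17 members. AMIGO2 reached 507, 478 and 515 CPM in treated KO cells, from 150.4, 149.8 and 129 CPM, and the difference from WT, -0.80 ± 0.16, had an adjusted p of 0.0625 (edgeR). Cholesterol genes had medians of -0.59 and -0.87, also with 0 called differences. For interferon-stimulated genes the median change was 0.17 in WT and 1.44 in KO cells, and 9 of 41 members had a called difference. OASL reached 102, 119.5 and 96.7 CPM in treated KO cells from 11.7, 14.1 and 7.24 CPM, a difference of -2.81 ± 0.35 (adjusted p = 0.00736, edgeR), and IFIT2 reached 121, 141 and 152 CPM from 14.1, 15.4 and 17.1 CPM, a difference of -2.50 ± 0.30. CDH16, the kidney cadherin, showed the opposite, with 22.9, 26.1 and 33.5 CPM in DMSO and 3.14, 4.21 and 5.44 CPM under A1331852 in KO cells and 30.6, 26.7 and 74.7 and 25.6, 36.9 and 29.4 CPM in WT cells.

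**Figure D5:**
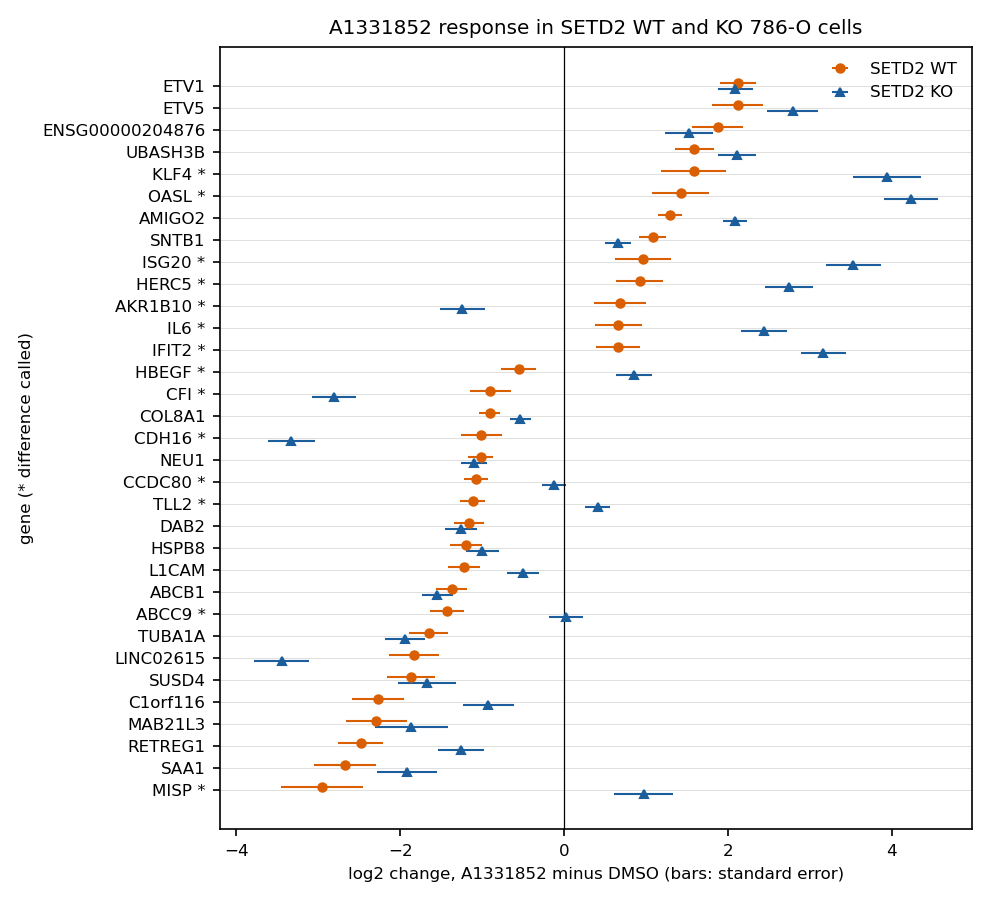
Fitted log2 change under A1331852 with its standard error in SETD2 WT (circles) and KO (triangles) cells, for the 23 genes called in WT and other genes with a called difference, which bear a star. ETV1 and NEU1 have nearly the same change in both genotypes, CCDC80, TLL2, ABCC9 and MISP fell in WT and were not called in KO, and OASL, ISG20, IFIT2 and HERC5 have larger changes in KO.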

How the data were processed

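Per the file headers, the authors counted read pairs per gene with featureCounts 1.5.0-p3 on the reverse strand (setting 2), over exons of GENCODE release 41. The submitters' processing notes name STAR, MultiQC 1.7, DESeq2 and GRCh38. The deposited values are raw counts, 1 file per library, not normalized. Per the labels, libraries were poly(A) selected and sequenced as 150 bp paired ends. Gene positions were those deposited with the counts. Gene types came from GENCODE release 29 by name, which matched 36623 of 60606 names, and otherwise from RefSeq.

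One model covered all 12 libraries of 786-O in edgeR 4.0.16 (R 4.3.3). It used TMM scaling, filterByExpr at a minimum count of 10, group and batch terms, Benjamini-Hochberg adjustment and the quasi-likelihood F test. SE is the log2 change over the square root of F. Levels in CPM use the same factors, except the sums of cell type markers, which use library totals. DESeq2 1.42.0, limma 3.58.1 voom, other scalings, filters, batch handling, a replicate block and each library left out were alternatives. Errors reflect differences among replicate libraries.

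The members and the 39 gene lists were chosen with earlier results of these data known. Genes were named by a rule: SETD2 and the BCL-2 family, all called genes, the 12 largest changes in each direction without overlap (unadjusted p under 0.05, mean of 5 CPM or more), and up to 6 members of each list by unadjusted p. The remaining ERK outputs and the other list members named were picked after their values were seen. The promoter motifs were also chosen after values were seen. Single values of some list members are not reported here.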

Additional observations from a re-analysis of the deposited data

Results flagged for a closer look

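For 14 of the named genes reported here the response to A1331852 differed between SETD2 WT and KO cells in the interaction test (edgeR, adjusted p under 0.05). Values are the log2 change in WT minus that in KO. Among the genes that fell in WT, the difference was -0.953 for CCDC80, -1.52 for TLL2, -1.45 for ABCC9 and -3.93 for MISP.

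Interferon-stimulated genes and a cytokine had lower values in WT: OASL at -2.81, ISG20 at -2.57, IFIT2 at -2.5, HERC5 at -1.82 and IL6 at -1.77. In these genes the fitted WT change was positive but smaller than the KO change, for example 1.42 and 4.23 in OASL, or 0.66 and 3.16 in IFIT2. KLF4, a transcription factor, had a difference of -2.35 and HBEGF, an EGF receptor ligand, one of -1.41. HBEGF had a negative change in WT (-0.556) and a positive change in KO (0.851).

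The difference was positive in CFI, a complement protease (1.91), CDH16, the kidney cadherin (2.32), and AKR1B10, an aldo-keto reductase (1.93). The fitted changes of CFI and CDH16 were negative in both genotypes, with the larger one in KO. CFI was at 6.93, 6.95 and 64.5 CPM in WT DMSO and 27.8, 30.3 and 22.5 CPM in WT A1331852, and its change in WT was 0.003726 on the log2 scale without DMSO replicate 3. CDH16 was at 30.6, 26.7 and 74.7 CPM in WT DMSO and 25.6, 36.9 and 29.4 CPM in WT A1331852, and OASL at 6.53, 5.59 and 1.11 and 4.85, 5.13 and 6.74 CPM, so in both DMSO replicate 3 stood apart from the other controls. The number of genes with a called difference, 48, was 0 without KO DMSO replicate 1 or 2, 10 without WT DMSO replicate 1 or 2, 15 without KO A1331852 replicate 2, 24 and 31 without WT A1331852 replicates 2 and 1, 87 and 89 without WT or KO DMSO replicate 3, and, rounded, 5.0e+02 without WT A1331852 replicate 3.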

How the results depend on the processing

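The 23 genes called in WT cells kept their direction under each alternative in which they were tested. With a mean of at least 50 counts, 20 were tested. The alternatives refitted libraries in which these genes had been picked, so the kept direction is no independent check. The number of calls did not hold. With 6 higher and 17 lower in the reported fit, there were 415 calls with DESeq2 (223 and 192), 909 with no filter (460 and 449), 6 with no batch term (2 and 4), 2831 with a replicate block (1363 and 1468), and 2 against a log2 threshold of 0.5 (1 and 1). Within batch 1 alone (1 DMSO library per genotype, assumed to vary like the other groups) and in the 6 WT libraries alone edgeR called 0 genes, 0 higher and 0 lower, with 1351 of 17353 and 1557 of 15224 at an unadjusted p under 0.05. Library totals gave 9 lower. With each library left out in turn, total calls ran from 0 (without WT DMSO replicate 3) to 64 (without WT A1331852 replicate 1), calls of higher levels from 0 to 41 and of lower levels from 0 to 34. There were 3 without WT or KO DMSO replicate 1 or 2, 5 without KO A1331852 replicate 2, and 45 and 48 without WT A1331852 replicates 2 and 3. Higher calls outnumbered lower calls with DESeq2, with no filter, without WT A1331852 replicate 1 (41 and 23) and without WT or KO DMSO replicate 1 or 2 (2 and 1).

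The difference between genotypes was called for 48 genes, and for 364 with DESeq2, 647 with no filter, 7 with no batch term and 334 with a replicate block. It ran from 0 to 5.0e+02 (rounded) with each library left out. The KO response, with 2201 calls, had 4311 with a replicate block and 592 to 3593 with each library left out.

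Residuals of same-numbered WT DMSO and A1331852 libraries correlated at 0.0736, -0.0488 and 0.00139, and neither replicate 2 nor replicate 3 correlated best with its own number, so the numbers were not taken as pairs and the replicate block is given only here.

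Reversals were counted for genes with an unadjusted p under 0.05. Without the batch term the change became -0.395 in CDT1, -0.1329 in SHMT2, -0.03254 in CGAS, 0.1454 in COX5B and 0.05777 in CFI. With each library left out CFI ran from -1.251 to 0.003726, the latter without WT DMSO replicate 3. The list median of death receptors became 0.04209 with a replicate block, and ran from -0.1136 to 0.06872 (without WT A1331852 replicate 1) with libraries left out. That of acute phase and complement became 0.05777 with no batch term and 0.1015 with a replicate block. It ran from -0.2464 to 0.1794 (without WT DMSO replicate 3) with libraries left out, and was 0.03445 when WT A1331852 replicate 1 was dropped. That of the TGF-beta pathway became -0.07312 with no batch term. The cause of these changes was not tested. The KO alternatives were chosen after seeing the data. Depth was 15199420 to 36037616 counts per WT library, which leaves genes such as BCL2A1, under 1 CPM in all WT libraries, with few counts.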

Other observations

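Some transcripts outside the comparisons above had non-overlapping levels in WT cells at an unadjusted p under 0.05, and none of them was called. Among genes of the NRF2 pathway, SLC7A11, the cystine importer, was at 33.02, 30.3 and 46.3 CPM in DMSO and 53.7, 59.8 and 74.8 CPM in A1331852. EDEM1, which removes misfolded glycoproteins from the endoplasmic reticulum, was at 67.1, 66.7 and 62.3 and 77.4, 84.1 and 97.6 CPM. LAMP1, a lysosomal membrane protein, was at 501, 502 and 566 and 362, 437 and 404 CPM, and PINK1, the kinase that marks damaged mitochondria, at 65.9, 66.1 and 68.1 and 51.6, 51.4 and 46.6 CPM. CD14, a leukocyte marker, had its highest level at 0.429 CPM and a change of 2.05 ± 0.55.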
